A study of Mus musculus with 8 samples.

Results

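Creb3 and 7 genes of endoplasmic reticulum (ER) quality control and secretory transport, Vcp, Ube2j1, Sec61b, Erp44, Dnaja1, Calu and B4galt1, were followed in mouse MA9 leukemia cells with and without Gata2. They are 8 of the 49585 rows of the count table. They were taken by symbol through their Ensembl identifiers, and all 8 were found. Messenger RNA came from bone marrow leukemia cells labelled MA9, a usual short form for the MLL-AF9 fusion, cultured with 15% serum and the cytokines IL-3, SCF (at 20 ng/mL) and IL-6 (at 10 ng/mL). Gata2 f/f cells kept Gata2 alleles flanked by recombination sites. Gata2 KO cells (Gata2 -/-) had lost Gata2, a transcription factor that blood stem and progenitor cells need. Both genotypes carry the MA9 label, and each had 4 libraries numbered 1 to 4. The recombinase used, the mouse strain and age, and whether the libraries came from separate mice or cultures are not given in the sources used. The p-values therefore measure only the spread between these libraries, which may be technical.

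Proteins bound for the cell surface or for secretion enter the ER through the Sec61 channel and fold there with the help of chaperones. Chains that fail to fold are marked with ubiquitin at the ER membrane, pulled out by the ATPase p97 and degraded by the proteasome. Stress in the ER or Golgi can also release membrane-bound transcription factors of the CREB3 family by cleavage, and the freed part moves to the nucleus. Blood cells use this system to control the load of proteins made for granules and membranes.

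Many row names of the table do not match what was counted under them by the check that follows, which limits which ER genes can be described. Of 334 genes of 18 ubiquitous families, such as ribosomal proteins and proteasome subunits, 228 (68.3%) lay under 1 CPM (the usual short form for counts scaled to the same library total) in the pooled libraries. The row named Actb held 10 counts over all 8 libraries and B2m held 0. In the stretches of chromosome 4 with rows from 3806635 to 49474410 and of chromosome 6 with rows from 11900292 to 30175126 (GRCm38), where the 8 genes lie, 8 of 8 such genes were counted at 20 CPM or more. These stretches are called the readable windows below. They were chosen in earlier results on this table as stretches where ubiquitous genes are counted. The 8 of 8 is therefore no independent check of the row names there. The row of Gata2 held 0, 0, 1 and 1 counts in Gata2 f/f replicates 1 to 4 and 2, 0, 0 and 0 in Gata2 KO, which is too low to check the labels of the genotypes. None of 30 marker genes of 5 blood cell classes lies in the windows. By row name alone, 5 of 10 myeloid markers (Mpo, Cd33 and Itgam among them), 3 of 5 progenitor, 3 of 5 mast cell and basophil, 5 of 5 erythroid and 3 of 5 lymphoid markers were under 1 CPM. The labelled cell type could therefore not be checked. The summed myeloid rows ran from 502 to 583 CPM in Gata2 f/f and from 738 to 772 in Gata2 KO, most of it in the row named Fcgr3 (565 CPM in the pooled libraries). The summed mast cell and basophil rows, mostly the row named Ms4a2 (1782 CPM pooled), ran from 1901 to 2967 CPM in Gata2 f/f and from 1388 to 2295 in Gata2 KO. Progenitor rows ran from 41.0 to 64.2 and from 33.8 to 48.9 CPM, lymphoid rows from 46.0 to 55.9 and from 43.8 to 51.0, and erythroid rows from 0.182 to 1.24 and from 0.160 to 1.39. The part of these in the results below was not tested.

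Total counts ran from 1610369 to 6237748 per library, and the libraries numbered 4 were the deepest of their genotypes. Creb3 had the fewest counts of the 8 genes, 143 to 914 per library, which gives a counting error of 8.36% to 3.31%. Every other member had at least 919 counts in each library.

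Compared with Gata2 f/f, Gata2 KO cells had more Creb3 and B4galt1 messenger RNA. Ube2j1 was higher and Dnaja1 was lower in all 4 pairs of same-numbered libraries. With all 8 libraries and TMM scaling, both passed in edgeR only once that number was taken into account. Dnaja1 also passed without it in some of the alternatives given below, and Ube2j1 did not. Vcp, Sec61b, Erp44 and Calu did not pass in either form of the test. Under the quasi-likelihood test of edgeR with genotype alone, 2 of 8 passed a Benjamini-Hochberg adjusted p of 0.05, both higher in Gata2 KO. Of the 6580 rows tested over the whole table, 12.5% passed, 8.97% higher and 3.53% lower. In the readable windows 12.2% of 221 rows passed, 9.5% higher and 2.71% lower. Once replicate number was added as a block, 4 of 8 passed, 3 higher and 1 lower, against 35.5% of all rows (18.8% higher, 16.7% lower) and 44.8% in the windows (20.8% higher, 24.0% lower). The median log2 fold change (Gata2 KO minus Gata2 f/f) of the 8 genes was -0.01, as was that of all rows tested. In bulk RNA a change in level cannot be told apart from a change in the share of cells that carry the transcript.

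**Figure D1:**
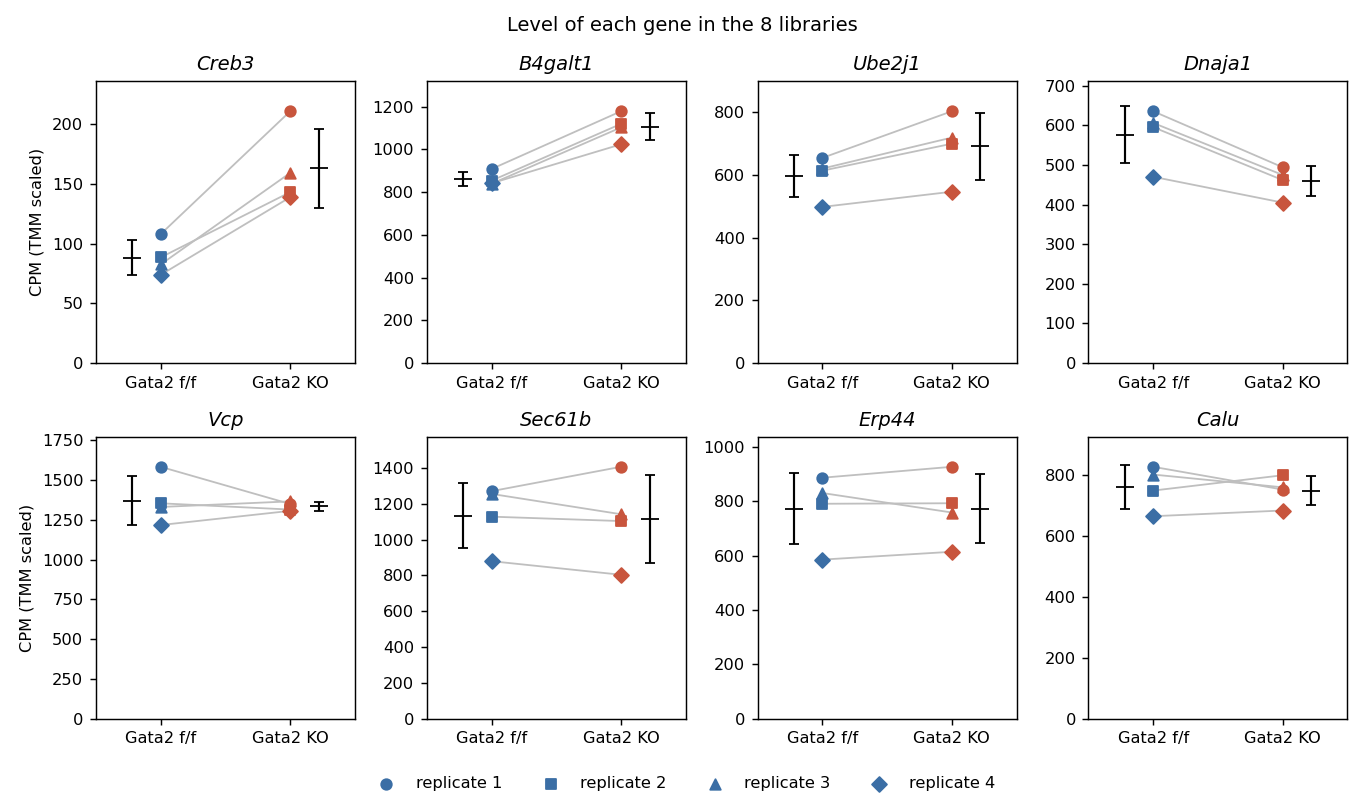
CPM with TMM scaling (vertical axis, starting at 0) of the 8 genes in Gata2 f/f (blue) and Gata2 KO (red); marker shapes give the replicate number, grey lines join libraries with the same number, and black bars give the mean and SD of 4 libraries. Creb3 and B4galt1 are higher in every Gata2 KO library, and the libraries numbered 4 (diamonds) are the lowest in 15 of 16 groups shown.

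Creb3 (ENSMUSG00000028466.15, chromosome 4 from 43562332 to 43567060, plus strand) encodes a transcription factor anchored in the ER membrane, also called Luman, that is cut free when the secretory pathway is stressed. Its level was 108, 88.4, 82.6 and 73.8 CPM in Gata2 f/f replicates 1 to 4. The Gata2 KO libraries 1 to 4 were at 211, 143, 159 and 139 CPM. The lowest Gata2 KO library thus lay above the highest Gata2 f/f library, which held in this direction for 11.6% of all rows tested. The mean rose from 88.2 ± 14.5 to 163 ± 33.1 CPM (SD, n = 4 each). On the log2 scale this was 0.89 ± 0.16 (SE, adjusted p = 0.0039 in the quasi-likelihood test of edgeR), or 1.85-fold with a 95% interval of 1.45 to 2.37. Between same-numbered libraries the log2 ratio was 0.97, 0.69, 0.95 and 0.91. With the block the adjusted p was 1.21e-07. Without any 1 library the log2 fold change ran from 0.74 to 1.00 and the adjusted p from 0.00152 to 0.0187. Creb3 ranked 17 from the top among the 221 rows of the windows by log2 fold change.

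Creb3 can also be given relative to Vcp, which lies on the same chromosome. Vcp was taken with its test result known, which did not pass, so this ratio restates the change of Creb3 and is no independent check of it. Per 1000 Vcp counts, Creb3 had 68.2, 65.3, 62.0 and 60.7 counts in Gata2 f/f replicates 1 to 4. It had 156, 109, 117 and 106 in Gata2 KO replicates 1 to 4. The groups did not overlap, and Gata2 KO replicate 1 was the highest.

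Creb3 shares exon bases with a gene on the opposite strand at each end, and the library kit does not mark strand. It shares 360 of its 2372 exon bases (15.2%) with Tln1, the gene of the actin linker talin, and 133 (5.61%) with Gba2, the gene of a glucosylceramidase. Tln1 was at 1454, 1682, 1400 and 2970 CPM in Gata2 f/f replicates 1 to 4 and at 1827, 2380, 2267 and 4132 in Gata2 KO. It was thus highest in the libraries numbered 4, where Creb3 was lowest. Like Creb3, Tln1 was higher in Gata2 KO in all 4 pairs (log2 ratio 0.33, 0.50, 0.70 and 0.48). The log2 fold change of Tln1 was 0.50 ± 0.28 (adjusted p = 0.306, and 7.54e-06 with the block, edgeR). Gba2 was at 114 ± 13.8 CPM in Gata2 f/f and 119 ± 17.6 in Gata2 KO (SD, n = 4 each; adjusted p = 0.835, edgeR). How many Creb3 counts came from reads of either neighbour was not tested.

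**Figure D2:**
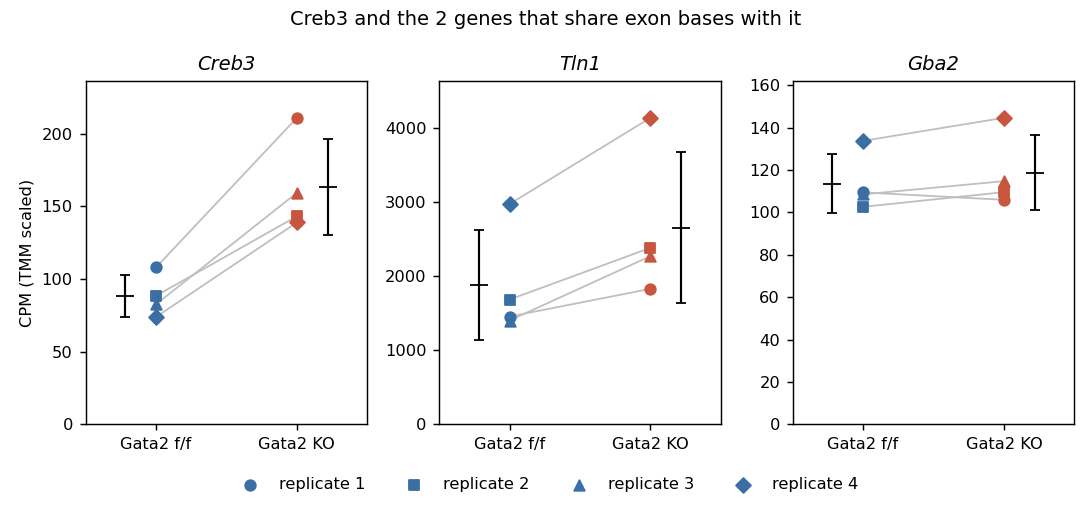
CPM with TMM scaling of Creb3 and of the genes that share exon bases with it, Tln1 and Gba2, with symbols as in the plot of all 8 genes. The libraries numbered 4 are the highest for Tln1 and Gba2 in both genotypes and the lowest for Creb3. Creb3 and Tln1 are both higher in Gata2 KO in all 4 pairs.

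B4galt1 (ENSMUSG00000028413.13, chromosome 4 from 40804602 to 40854005, minus strand) encodes a Golgi enzyme that adds galactose to the sugar chains of glycoproteins after they leave the ER. It was at 908, 853, 839 and 841 CPM in Gata2 f/f replicates 1 to 4 and at 1178, 1119, 1103 and 1024 CPM in Gata2 KO. All Gata2 KO libraries lay above all Gata2 f/f libraries, as for 11.6% of all rows tested, and the spread within each genotype was narrow. The mean rose from 861 ± 32.3 to 1106 ± 63.8 CPM (SD, n = 4 each). On the log2 scale this was 0.36 ± 0.10 (SE, adjusted p = 0.029, edgeR), or 1.29-fold with a 95% interval of 1.11 to 1.49. The log2 ratio within pairs was 0.38, 0.39, 0.39 and 0.28. With the block the adjusted p was 9.7e-05. Without the block the call was lost when Gata2 f/f replicate 2 or 3 or Gata2 KO replicate 1, 2 or 3 was left out (adjusted p = 0.0763 to 0.105), and with no filter on low counts (0.082). Its log2 fold change without any 1 library stayed between 0.33 and 0.40.

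Ube2j1 and Vcp act one after the other in the removal of misfolded proteins. Ube2j1 (ENSMUSG00000028277.13, chromosome 4 from 33031416 to 33052363, plus strand) encodes the ubiquitin-conjugating enzyme held in the ER membrane. It was at 654, 614, 620 and 498 CPM in Gata2 f/f replicates 1 to 4 and at 803, 699.5, 719 and 546 CPM in Gata2 KO. The genotypes overlapped, because Gata2 KO replicate 4 lay below 3 of the Gata2 f/f libraries, yet each Gata2 KO library was above the Gata2 f/f library of its number. The log2 ratio within pairs was 0.30, 0.19, 0.21 and 0.13. With genotype alone the log2 fold change was 0.21 ± 0.14 (SE, adjusted p = 0.368, edgeR), and with the block it was 0.21 ± 0.06 (adjusted p = 0.0115). That call was lost without both libraries numbered 3 (adjusted p = 0.0647, edgeR with the block), and without those numbered 2 it was 0.0499.

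Vcp (ENSMUSG00000028452.7, chromosome 4 from 42979963 to 43000507, minus strand) encodes p97, the ATPase that extracts ubiquitin-marked proteins from the ER membrane. It was at 1583, 1354, 1331 and 1217 CPM in Gata2 f/f replicates 1 to 4 and at 1350, 1315, 1366 and 1306 CPM in Gata2 KO. The Gata2 KO libraries lay close together inside the range of Gata2 f/f. The fold was 0.973 with a 95% interval of 0.826 to 1.15 (adjusted p = 0.874, edgeR), and with the block the interval was 0.892 to 1.07 (adjusted p = 0.74).

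The promoters of these neighbours in the pathway shared a word that is known as the binding sequence of the unfolded protein response factors XBP1 and ATF6, TGACGTGG. Promoter windows of 300 bases, from 250 before to 50 after each start in RefSeq (GRCm38.p6), were searched on both strands. There were 11 windows for the 8 genes, some with several starts and windows that overlap. The word stood in 2 of the 11, 1 of Ube2j1 and 1 of Vcp, and in 0.676% of all 32851 promoters. Each is printed 5′ to 3′ on the strand of its gene with 30 bases of context and the word in capitals, which for Ube2j1 reads as its reverse complement CCACGTCA. They lie at chr4:33031301-33031330 (plus strand, word starting 68 bases before the start) and chr4:43000603-43000632 (minus strand, 114 bases before the start).
Ube2j1: cgaagcgcccgCCACGTCAggccgacttca
Vcp: ctgcggccaatTGACGTGGcgttactaggc
The cyclic AMP response element TGACGTCA (1.79% of all promoters), whose letters read the same on both strands, and the ER stress response elements I (0.119%) and II (0.0365%) were not among the letters of the 11 windows. The GATA word GATAA stood in 2 of 11 windows, those of Vcp and Sec61b, and in 25.4% of all promoters. Of the genes with either word, Ube2j1 alone passed a test between the genotypes, and only with the block. These are matches of letters, and neither binding nor an effect on transcription was measured. The window of Ube2j1 had 78.7% G and C and that of Vcp 55.7%, against a median of 52.7% over all promoters. The shares over all promoters are not matched for this. The bases after the Ube2j1 start were not found in its GENCODE transcripts, so that start rests on RefSeq.

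Sec61b, Erp44 and Calu serve entry and folding in the ER. Sec61b (ENSMUSG00000053317.11, chromosome 4 from 47474658 to 47483242) encodes the beta subunit of the Sec61 channel. It was at 1270, 1128, 1255 and 879 CPM in Gata2 f/f replicates 1 to 4 and at 1407, 1103, 1142 and 803 CPM in Gata2 KO. Only the pair numbered 1 was higher in Gata2 KO. The fold was 0.983 with a 95% interval of 0.756 to 1.28, and 0.888 to 1.07 with the block (adjusted p = 0.958 and 0.668, edgeR).

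Erp44 (ENSMUSG00000028343.10, chromosome 4 from 48193323 to 48279558) encodes a thioredoxin-like protein that brings ER proteins and unassembled antibody chains back from the Golgi. It was at 774 ± 131 CPM in Gata2 f/f and 774 ± 129 in Gata2 KO (SD, n = 4 each), and the ranges of 586 to 888 and 615 to 928 CPM overlapped almost wholly. The 95% interval of the fold was 0.789 to 1.27, and 0.917 to 1.09 with the block (adjusted p = 1 and 0.987, edgeR). Calu (ENSMUSG00000029767.16, chromosome 6 from 29348069 to 29377110) encodes calumenin, a calcium-binding protein of the secretory pathway. It was at 762 ± 71.8 CPM in Gata2 f/f and 750 ± 48.2 in Gata2 KO (SD, n = 4 each). The Gata2 KO library was the higher one in 2 of 4 pairs. The interval of its fold was 0.837 to 1.16, or 0.902 to 1.08 with the block (adjusted p = 0.931 and 0.837, edgeR). For Vcp, Sec61b, Erp44 and Calu the intervals with the block therefore reach no further than 0.888-fold and 1.09-fold, while a p above the threshold does not show equal levels.

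Dnaja1 (ENSMUSG00000028410.13, chromosome 4 from 40722150 to 40737149, plus strand) encodes an HSP40 co-chaperone that works with HSP70, mainly in the cytosol and on the outer face of organelles. It was at 636, 596, 606 and 470 CPM in Gata2 f/f replicates 1 to 4 and at 494, 462, 475 and 405 CPM in Gata2 KO. The genotypes overlapped only because Gata2 f/f replicate 4 lay below 2 of the Gata2 KO libraries, and every Gata2 KO library was below the Gata2 f/f library of its number. The log2 ratio within pairs was -0.36, -0.37, -0.35 and -0.22. The log2 fold change was -0.33 ± 0.12 (SE, adjusted p = 0.101, edgeR), or 0.796-fold with a 95% interval of 0.663 to 0.955 for this gene alone. Dnaja1 passed with the block (adjusted p = 0.000464), with library totals in place of TMM scaling (0.029), without both libraries numbered 4 (0.00648) and without Gata2 f/f replicate 4 (0.0196). It shares 608 of 8629 exon bases (7.05%) with Smu1 on the opposite strand, whose log2 fold change was -0.14 ± 0.15 (adjusted p = 0.617, and 0.0555 with the block, edgeR).

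**Figure D3:**
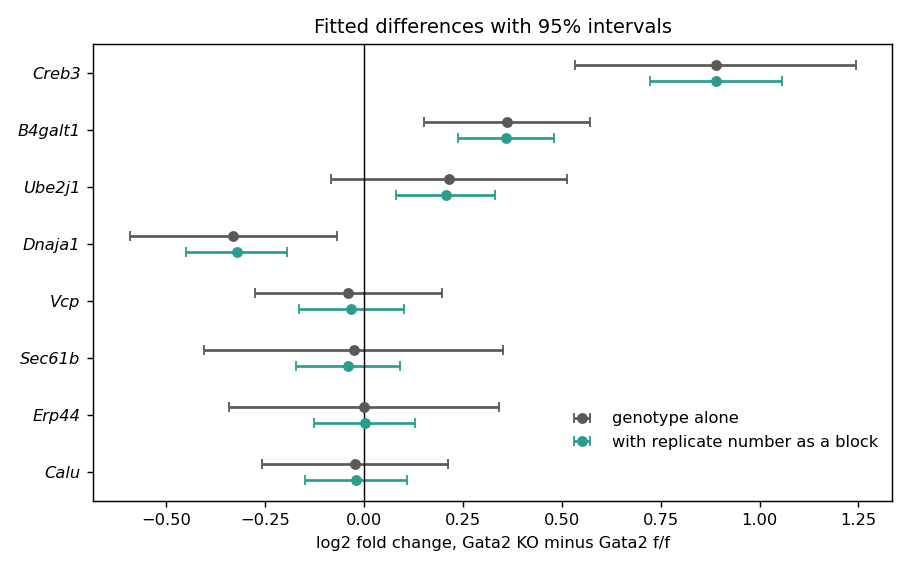
Log2 fold change of each of the 8 genes, Gata2 KO minus Gata2 f/f, with 95% intervals from edgeR with genotype alone (grey) and with the replicate number as a block (green). The estimates of both fits lie close together, and the intervals with the block are narrower; those of Ube2j1 exclude 0 only with the block.

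Levels of the 8 genes also differed by replicate number. The library numbered 4 was the lowest of its genotype for 7 of the 8 genes in both genotypes, and for B4galt1 in Gata2 KO. The share of all rows for which it was the lowest was not counted, so this is not shown to be particular to these genes. Over the 6580 rows tested, the libraries numbered 4 also deviated together most strongly from their genotype means. Their correlation was 0.804, against 0.333, 0.213 and 0.243 for numbers 1 to 3. Sec61b was at 879 CPM in Gata2 f/f replicate 4 against a mean of 1218 in replicates 1 to 3, and at 803 against 1217 in Gata2 KO. Erp44 was at 586 against 837 CPM in Gata2 f/f and at 615 against 827 in Gata2 KO. Ube2j1 was 20.9% lower in Gata2 f/f and 26.2% lower in Gata2 KO, and Creb3 20.6% and 18.8% lower. Vcp was 14.4% and 2.75% lower. B4galt1 differed least in Gata2 f/f, by 2.95%. No source used here says what the number stands for. Without both libraries numbered 4 the log2 fold changes were 0.88 for Creb3, 0.40 for B4galt1, 0.24 for Ube2j1 and -0.35 for Dnaja1.

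Levels were compared between genes as CPM per kb of exon, counting every annotated exon base of a gene once. Over the 8 libraries Sec61b stood apart at 884 ± 158 CPM per kb (SD, n = 8), with no library as low as the highest of the next gene. Vcp (279 ± 21.5), B4galt1 (232 ± 32.9), Erp44 (226 ± 35.2), Ube2j1 (183 ± 27.6) and Calu (162 ± 12.2) followed, and the libraries of each neighbouring pair overlapped. Dnaja1 (60.0 ± 9.62) and Creb3 (53.0 ± 19.6) were the lowest and also overlapped. Sec61b was thus 16.7 times the level of Creb3 per kb. The order of the last pair turned with genotype, Dnaja1 at 66.9 ± 8.48 and Creb3 at 37.2 ± 6.09 CPM per kb in Gata2 f/f, against 53.2 ± 4.44 and 68.7 ± 13.9 in Gata2 KO (SD, n = 4 each). Long alternative exons lower the value per kb where they are little used, and Dnaja1 has 8629 exon bases against 2372 for Creb3. In CPM, not divided by length, Dnaja1 was above Creb3 in both genotypes. The means were 577 against 88.2 CPM in Gata2 f/f and 459 against 163 CPM in Gata2 KO.

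**Figure D4:**
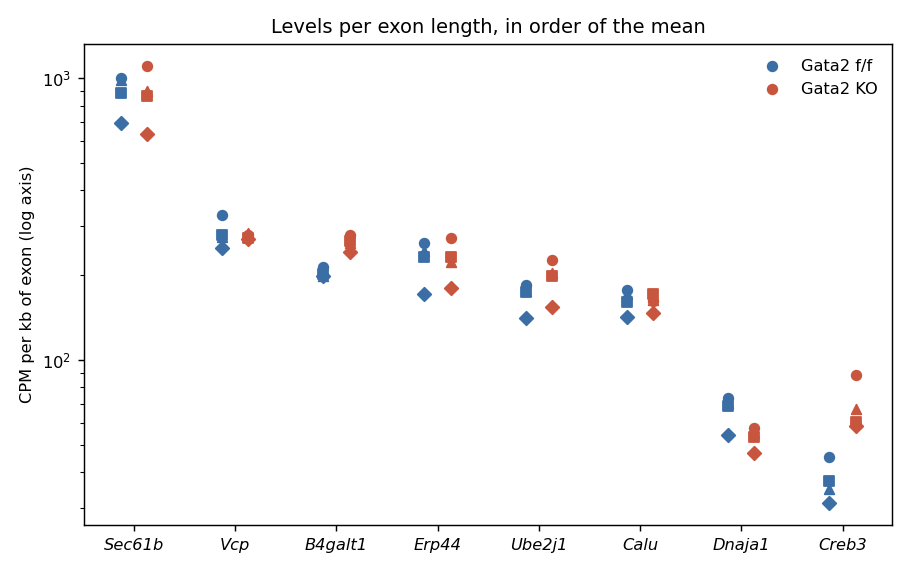
CPM per kb of exon (log axis) of the 8 genes in each library, ordered by their mean, with Gata2 f/f in blue, Gata2 KO in red and marker shapes for the replicate number as in the plot of CPM by library. Sec61b is above all other genes in every library, and per kb Creb3 lies below Dnaja1 in Gata2 f/f and above it in Gata2 KO.

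Other genes were taken from 3 lists named for ER and secretory functions, though not every listed gene acts in the ER. Of these, 26 genes are described here, of which 24 had enough counts to be tested. Fut9 was too low, as was Pgap4 (listed as Tmem246), which lies just outside the windows. With genotype alone 1 gene passed, higher in Gata2 KO, and 0 were lower, with a median log2 fold change of 0.05. At an unadjusted p under 0.05 in edgeR, 7 of the 24 were higher (29.2%) and 1 lower (4.17%), against 15.0% and 11% of all rows tested. With the block 7 were higher (29.2%) and 4 lower (16.7%), against 18.8% and 16.7% of all rows and 20.8% and 24.0% in the windows. DESeq2 called C9orf72 higher and Gne lower, and over the whole table it called 614 rows higher and 325 lower.

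Of 8 genes listed under quality control, p97 cofactors and chaperones, C9orf72, a gene linked to autophagy, passed with genotype alone. Its range was 9.76 to 15.5 CPM in Gata2 f/f and 40.7 to 54.6 in Gata2 KO. Ubap1, an ESCRT subunit that sorts ubiquitin-marked membrane proteins, was at 229 ± 20.6 CPM in Gata2 f/f and 285 ± 14.5 in Gata2 KO (SD, n = 4 each; adjusted p = 0.0687, and 0.00133 with the block, edgeR). Ubap1 did not overlap between genotypes, nor did Stx17, an autophagy syntaxin, whose log2 fold change was 0.08 (adjusted p = 0.643). Non-overlap held for 19.1% of all rows tested (7.52% lower in Gata2 KO). With the block 2 of 8 were higher (C9orf72 and Ubap1) and 1 lower (the p97 cofactor gene Ubxn2b), against 18.8% and 16.7% of all rows. Ufl1, the ligase of the UFM1 modifier at the ER, had a log2 fold change of -0.07 and Bag1, a nucleotide exchange factor of HSP70, of 0.00.

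Of 8 genes tested for glycosylation, GPI anchors and ER enzymes, 0 passed in edgeR with genotype alone, while 1 was higher and 1 lower at an unadjusted p under 0.05, and DESeq2 called 1 lower. Gne, the first enzyme of sialic acid synthesis, was at 455 ± 36.3 CPM in Gata2 f/f and 364 ± 30.9 in Gata2 KO (SD, n = 4 each; adjusted p = 0.0709, edgeR). It was lower with the block (0.00139), as was Alg2, a mannosyltransferase that builds the N-glycan precursor (log2 fold change -0.31, adjusted p = 0.00112). Dpy19l4, a member of a family of C-mannosyltransferases, was higher with the block (0.30, adjusted p = 0.00252). With the block 1 of 8 was higher and 2 lower, against 18.8% and 16.7% of all rows. B4galt1 thus rose while Gne and Alg2 had negative log2 fold changes, and the difference between them was not tested.

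Of 8 genes listed under ER to Golgi and Golgi traffic, 0 passed with genotype alone in edgeR and in DESeq2. At an unadjusted p under 0.05 in edgeR, 4 were higher and 0 lower, against 15.0% and 11% of all rows tested. In DESeq2, 2 were higher and 1 lower at that threshold. With the block 4 of 8 were higher and 1 lower, against 18.8% and 16.7% of all rows and 20.8% and 24.0% in the windows. The higher ones were Arf5, a small GTPase of Golgi coat assembly (log2 fold change 0.41; adjusted p = 0.0766, and 6.51e-05 with the block), Gcc1 (0.29; 0.142 and 0.012), Tmem106b (0.31; 0.188 and 0.00092) and Clta (0.26; 0.188 and 0.00118). The lower one was Rab2a, a GTPase of transport from the ER, at -0.24 (0.225 and 0.00913). Whether these 8 genes differ from all rows in their share of calls was not tested.

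**Figure D5:**
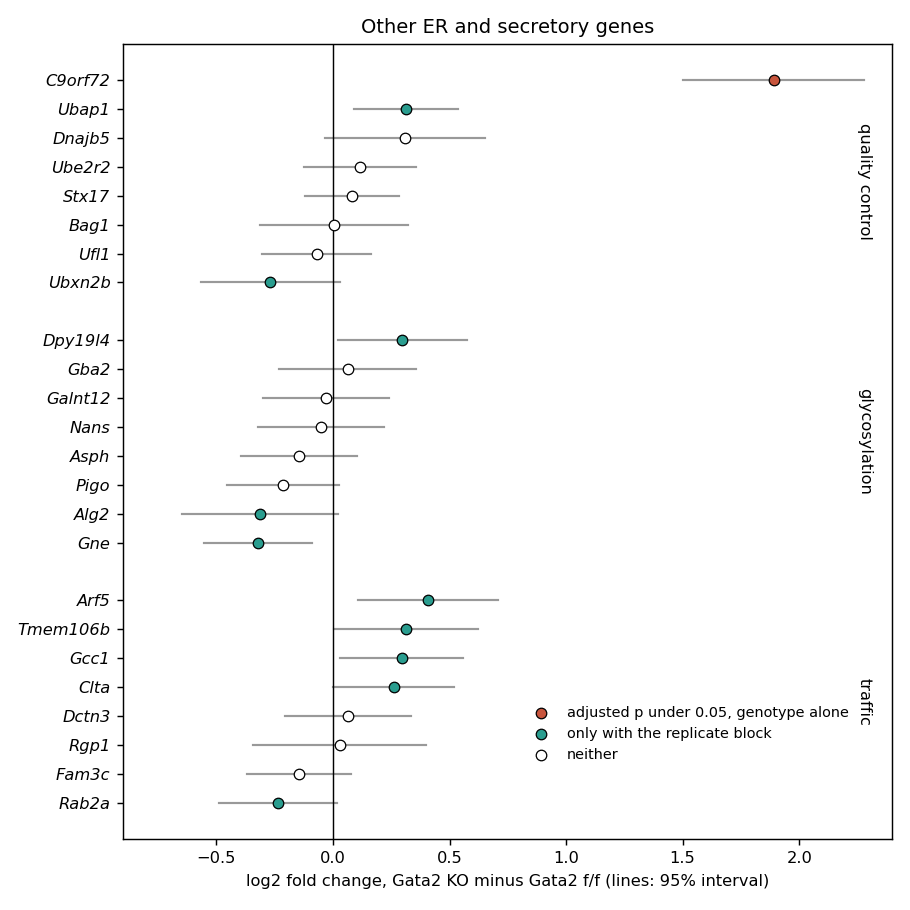
Log2 fold change, Gata2 KO minus Gata2 f/f, of the 24 tested genes of the 3 lists, with 95% intervals from edgeR with genotype alone; red marks a call with genotype alone, green a call with the replicate block only and white neither. C9orf72 at 1.89 is the single red point, and 10 genes are green.

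Most classical genes of the ER stress response lie outside the windows and could not be read. Over all 8 libraries the rows named Hspa5 (the chaperone BiP), Hsp90b1, Herpud1, Sec61a1 and Xbp1 held 5, 3, 2, 4 and 5 counts. Of 82 such rows in 4 lists, Creb3 left out, 46 were under 1 CPM and 30 were tested. By row name 3 passed with genotype alone (Canx, Edem1 and Derl2, each higher in Gata2 KO), and 8 with the block, 6 of them higher. These are 10.0% and 26.7% of the 30, below the 12.5% and 35.5% of all rows tested. These are names of rows, so whether the stress response differed between genotypes was not measured.

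The rows of the windows closest to Creb3 in pattern were sought among 176 named rows by the root mean square difference of centred log2 CPM over the 8 libraries. They were Tfec (0.19), a transcription factor of the family of lysosomal regulators, Mob3b (0.19), Glipr2 (0.21), the gene of a Golgi membrane protein, Tes (0.24), the gene of an adhesion protein, and Tdrd7 (0.25), the gene of a Tudor domain protein. In this order their log2 fold changes with genotype alone were 0.57, 0.64, 1.14, 0.43 and 0.86. The measure includes the difference between the genotypes. A rise of these rows in Gata2 KO therefore follows from how they were chosen and is no separate result. Of the other members B4galt1 was nearest to Creb3 (0.31) and Dnaja1 farthest (0.62).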

How the data were processed

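The deposited table holds raw counts, whole numbers for each Ensembl identifier, from 8 poly(A) libraries read as 65 bp pairs. Per the submitters' processing notes, mm10, DESeq2, HTSeq and kallisto were used. Versions, the annotation and the tool behind the counts are not given in the sources used. Each column was assigned through its sample's description. Identifiers were matched without version numbers (99.5% of rows had a symbol), and coordinates are those of GENCODE M21. The kit in the labels' protocols keeps no strand information.

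CPM used TMM-scaled library totals, except where pooled or summed. Counts were tested in edgeR 4.0.16 (R 4.3.3) with the default expression filter (minimum count 10), the quasi-likelihood F-test and Benjamini-Hochberg adjustment over all 6580 rows tested. SEs were taken as the log2 fold change divided by the square root of F, and intervals are 95%, unadjusted. The fit was tested on simulated counts. Alternatives were library totals, DESeq2 1.42.0, no filter, the block, leaving out libraries, and, added after seeing the data, the block without each other pair. Replicates differed by more than sampling noise (chi-square over degrees of freedom 2.28 to 24.2). Depth allows 3 counts, 0.481 to 1.86 CPM, behind a 0, for counting error only.

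Same-numbered libraries deviated together from their genotype means (correlation over rows 0.333, 0.213, 0.243 and 0.804), and differently numbered ones by up to 0.182. The minimum of 0.1 set beforehand lies below that value, so passing it cannot show pairing. Each library correlated best with the library of its number in the other genotype. Number 4 lay far above 0.182 and number 2 close to it. The numbers, from the sample titles, were taken to pair the libraries, with no label for what a pair has in common. Values with the block rest on this and stand beside the results of the 8 members. The members and lists were chosen with earlier results of these data known. Named genes are the 8 members, up to 3 genes per list with the smallest adjusted p, those that passed, and the 5 rows nearest to Creb3. Names called only with the block, Stx17, Ufl1, Bag1 and the overlapping neighbours were added after their values were seen. In the lists, 2 genes are not reported here.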

Additional observations from a re-analysis of the deposited data

How the results depend on the processing

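Creb3 was called in each of the 17 alternatives, and no call changed direction. Ube2j1 was called with the replicate block (log2 fold change 0.21), also without both libraries numbered 4 (0.24), 1 (0.17) or 2 (0.21). Dnaja1 was called with library totals (-0.34), with the block (-0.32), without both libraries numbered 4 (-0.35) and without Gata2 f/f replicate 4 (-0.42). It was also called with the block without both libraries numbered 4 (-0.35), 1 (-0.31), 2 (-0.31) or 3 (-0.31). Leaving out 1 library gave Dnaja1 -0.42 to -0.27 and B4galt1 0.33 to 0.40. B4galt1 was not called in 6 of the 17 alternatives. These were no filter on low counts (0.38) and leaving out Gata2 f/f replicate 2 or 3 or Gata2 KO replicate 1, 2 or 3. Each left 1 member called higher, Creb3. Members called higher numbered 1 to 2 and called lower 0 to 1 when 1 library was left out. With library totals, with the block, without both libraries numbered 4, and with the block without any 1 pair, 1 member was called lower, against 0 with genotype alone. Vcp, Sec61b, Erp44 and Calu were called in none of the alternatives run. The cause of these differences was not tested.

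Of all rows tested, 590 were called higher and 232 lower. With the replicate block these were 1237 and 1102, without both libraries numbered 4 894 and 543, and with the block without those numbered 4 1016 and 711, 1 1375 and 1189, 2 1094 and 898, or 3 994 and 803. Leaving out 1 library gave 420 to 722 higher and 120 to 381 lower. Scaling by library totals moved the median log2 fold change of all rows by -0.02. Among the 8 genes and the 14 others chosen by the naming rule, 0 of 44 groups of 4 libraries held a library far apart from the rest by Dixon's test.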
